A study of Mus musculus with 48 samples.

Results

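Monocyte ATAC-seq peak lists of 18 ER-Hoxb8 clones were compared, 13 from clones 1 to 13 (early) and 5 from clones 16, 18, 20, 21 and 25 (late), out of 48 peak lists in all. The late lists are the monocyte lists of clones numbered above 13 that held at least 10000 peaks, and the other 6 late monocyte lists were shorter. The clone number is a name and not a time order. Each list was reduced to its 10000 peaks of highest first score before lists were compared, unless stated otherwise.

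ER-Hoxb8 cells are mouse bone marrow myeloid progenitors that are held immature and dividing by a Hoxb8 protein that needs oestrogen. All libraries come from such clones, per the labels. The progenitor libraries are labelled as GMP cells (granulocyte and monocyte progenitors) and the monocyte libraries as monocytic cells. Their titles mark every progenitor library as Plus and every monocyte library as Minus. All cells were kept in RPMI with 10% FBS, penicillin, streptomycin and the growth factor SCF, and the labels give no animal, time or treatment that separates the clones. Each clone gave 1 library per stage, so that every p-value below rests on the spread between single libraries of different clones. That spread includes technical spread within each group. Early and late are blocks of clone numbers, and the labels do not say whether they were prepared, sequenced or processed together. A batch that followed the numbering could not be told apart from the difference between the groups. The identity of the monocytes could not be checked against marker genes, because no mm9 annotation was used here and regions are therefore named by mm9 position only.

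ATAC-seq maps DNA that a transposase can enter, which in most cells means promoters, enhancers and other regulatory elements. When a myeloid progenitor matures into a monocyte, promoters of widely used genes usually stay open, while enhancers of progenitor genes close and enhancers of monocyte genes open. A more mature library would therefore be expected to gain monocyte regions and lose progenitor regions, whereas a list of low signal holds fewer reads per peak and orders its weaker peaks less reproducibly.

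The late lists held fewer tags at their peaks. The first score rose in even steps, and 1 step was read as 1 tag. The lowest peak kept held 9.00 tags in clone 16, 10.0 in clone 18, 15.0 in clone 20, 13.0 in clone 21 and 19.0 in clone 25. In the early lists it held 12.0 to 74.0 tags (median 45.0). Only the early lists of clones 3 and 10, with 12.0 and 13.0 tags, lay within the late range. The difference in means was -36.0 tags (two-sided exact permutation test over 8568 splits, p = 0.0028, adjusted p = 0.00373). The median peak kept held 12.0 to 31.0 tags in late lists and 31.0 to 213 tags in early lists. The relative depth read from the step size was 0.893, 0.844, 1.49, 1.00 and 1.85 in late clones 16, 18, 20, 21 and 25, against 0.538 to 1.09 in early clones, where 1 is the median of the 18 libraries (exact permutation test, p = 0.0533, adjusted p = 0.061). This reading holds only if all lists were scaled to 1 total, and total depth is unknown; on it, clones 16 and 18 lay below the early median of 0.998 and clones 20, 21 and 25 above it. The difference of 0.269 (late higher) passed without late clone 16, 18 or 21 (0.322 to 0.362, exact permutation tests, adjusted p = 0.0303 to 0.0408). Outside the mitochondrial sequence, the 10000 peaks held 184462 to 426516 tags per unit of relative depth in late lists and 533388 to 3396770 in early lists, and the groups did not overlap.

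The late lists were also less alike the other lists. Of 8 library measures tested, 6 (75.0%) differed after adjustment over the 8. The share of peaks that at least 12 of the 24 progenitor lists also held was 34.0% in clone 16, 58.5% in clone 18, 26.2% in clone 20, 43.2% in clone 21 and 52.3% in clone 25. It was 73.7% to 82.8% (median 79.0%) in early lists. The share of peaks found in no other list, with all other lists taken as deposited, was 25.4%, 2.55%, 22.8%, 19.2% and 7.24% in those 5 late lists and at most 0.05% in any early list. Neither measure overlapped between the groups (exact permutation tests, both p = 0.000117, the smallest that 8568 splits can give, both adjusted p = 0.000187). Late lists also had more peaks tied at the lowest score kept, 707 to 2219 against 68 to 477.

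**Figure D1:**
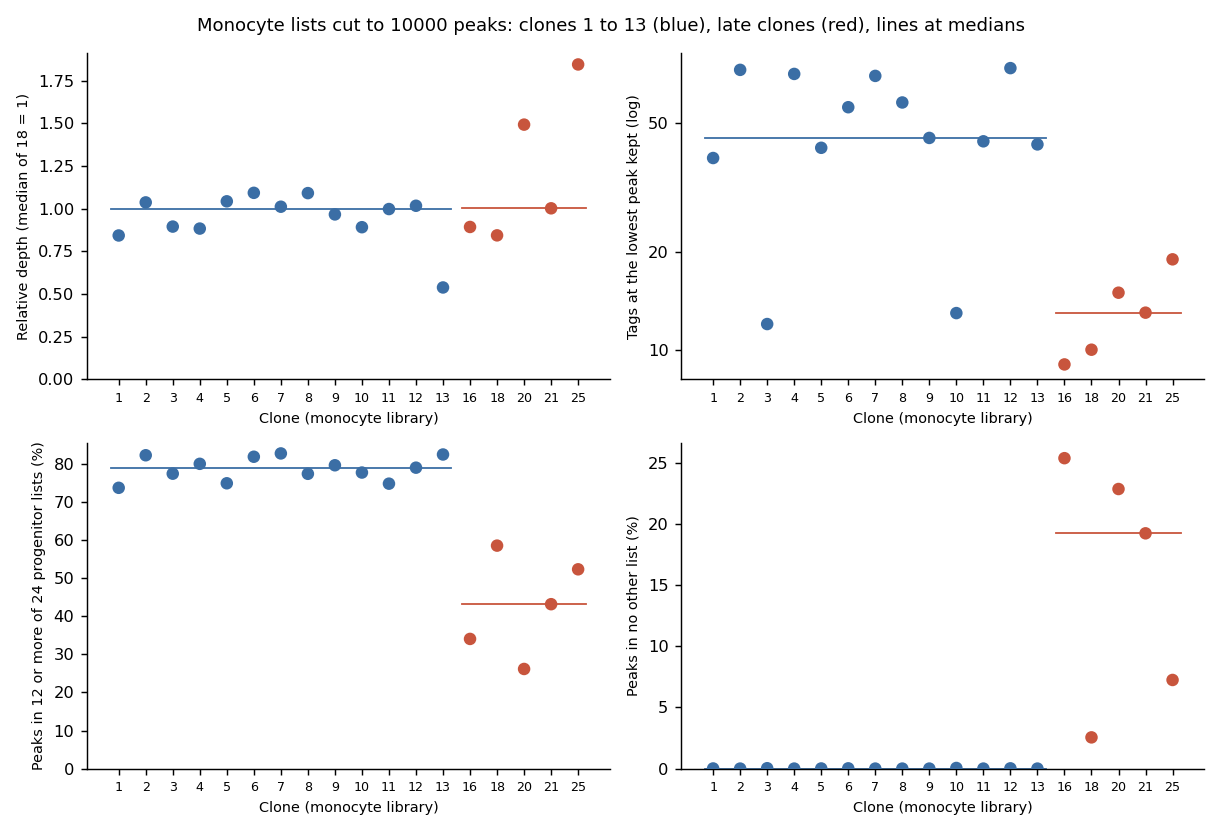
Each point is 1 monocyte library, with clones 1 to 13 in blue and the 5 late clones in red, and lines mark group medians; the panels show relative depth, tags at the lowest peak kept on a log axis, and the percentages of kept peaks found in 12 or more of 24 progenitor lists and in no other list. The late libraries reach 1.85 in depth but hold at most 19.0 tags at the lowest peak kept, and they stand apart from all early libraries in both lower panels.

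Early clones 3 and 10 were as thin as the late lists at their lowest kept peaks but kept the shared regions. Their mitochondrial sequence took 65.9% and 56.0% of the summed score, against 1.88% to 7.83% in late lists. Even so, 77.4% and 77.7% of their peaks were held by at least 12 progenitor lists, close to the early median. Their mean Jaccard index to the other early lists (shared regions over regions held by either list) was 0.712 and 0.716, where the other early lists had values up to 0.802. The late lists had values of 0.290, 0.583, 0.231, 0.342 and 0.482 to the early lists in the order of clones above. At other points clones 3 and 10 were less thin than most late lists. Their median peaks held 32.0 and 31.0 tags, where clone 25 had 31.0 and the other late lists fewer. They had 476 and 477 tied peaks, fewer than any late list, and 567319 and 533388 tags per unit of relative depth, more than any late list. The part of signal per peak in the late pattern was not tested.

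The late lists departed from the early ones mainly below their strongest peaks. Among ranks 1 to 1000, 73% of the peaks of clone 16, 91.3% of clone 18, 55.4% of clone 20, 89% of clone 21 and 90.1% of clone 25 were also in at least 50% of the early lists. Among ranks 5001 to 10000 these shares were 21%, 52.2%, 15.9%, 24.1% and 40.02%. In early lists the corresponding shares were 97.4% to 99.7% and 68.2% to 86%. Clones 16 and 20 differed from the early lists already at the top, whereas clones 18, 21 and 25 did so less there.

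**Figure D2:**
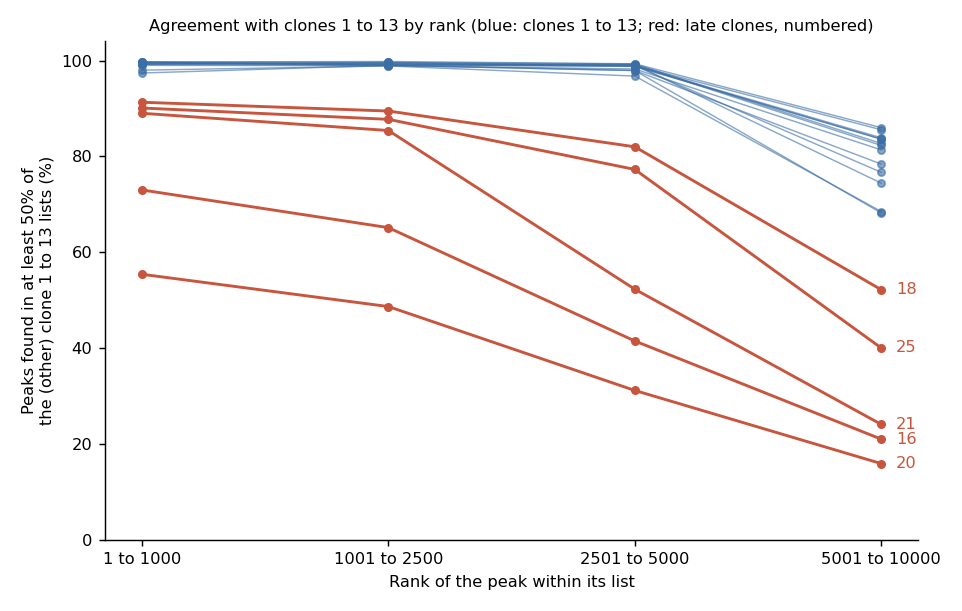
The share of peaks (vertical axis, %) that at least 50% of the clone 1 to 13 lists also held is plotted against the rank of the peak within its own list, with 1 line per library, blue for clones 1 to 13 and red for the numbered late clones. At ranks 5001 to 10000 the late lists lie between 15.9% and 52.2% and the early lists between 68.2% and 86%.

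Merging the 18 lists gave 30536 regions. Those present in 5 or more lists, 11231 in number, were tested for a different share of late and early lists. Late lists held 1580 regions less often (14.1% of those tested) and 158 more often (1.41%; Fisher's exact test per region, Benjamini-Hochberg adjusted p under 0.05). Of the late-lower regions, 792 were in none of the 5 late lists and 788 were in 1. Of the late-higher regions, 134 were in all 5 late lists and in no early list. Because at least 5 lists had to hold a region, a region confined to late lists entered only when all 5 held it, so that the call of these 134 was fixed by the filter. The late-higher set is therefore given as a description, and its number as no measure of a difference; leaving out any 1 late library left 12 to 17 late-higher regions. Lists cut by the second score gave 616 late-lower and 75 late-higher regions.

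Most late-lower regions were also progenitor regions, as were the regions that late lists kept. At least 12 of the 24 progenitor lists held 85.3% of them. For comparison, this was so for 90.9% of the 6873 regions that at least 10 early lists held and that were not called. At most 2 progenitor lists held 2.91% and 2.97% of these sets. The late-lower regions ranked lower within the early lists, with a median of 6736 against 3593 for that comparison set, that is, nearer the boundary at 10000. No late list held 446 of the 1580 even as deposited, against 1166 of all 11231 regions tested. The 1580 were called for being in few late lists, so a raised count follows in part from the call.

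The late-lower regions of highest early rank included 3 positions near the start of the chromosome 9 sequence and regions that nearly all progenitor lists held. The region chr9:3000324-3000547 was held by all 13 early lists at ranks 20 to 4014 (median 995.5) and by none of the 5 late lists, cut or as deposited (Fisher's exact test, adjusted p = 0.00261). When peaks were merged across 500 bp or counted in 1-kb bins, its difference was 0 percentage points, and cut by the second score it was -69.2 points (Fisher's exact test, adjusted p = 0.151). Its ranks in early clones 1, 3, 5, 10 and 11 were 28, 25, 20, 24 and 27, so that it was among the highest peaks in some early libraries and far lower in others. The regions chr9:3001323-3001504 and chr9:3032373-3032558 also varied widely, with early ranks of 27 to 6087 and 38 to 6998. In clones 1, 5 and 11 they stood lower than chr9:3000324-3000547, at ranks 420, 388 and 622.5 and at 891, 407.5 and 913.5. Unlike that region, both kept a difference of -100 points with merging across 500 bp, in 1-kb bins and cut by the second score. Both passed Fisher's exact test in each of these settings. In lists of 2500 peaks none of the 3 passed (differences of -69.2, -61.5 and -46.2 points, Fisher's exact test, adjusted p = 0.125 to 0.272). The region chr4:117852617-117852819 was more even, with early ranks of 818.5 to 2984 (median 1821.5). All 24 progenitor lists held it, and no late list did, although 2 of the 6 shorter late lists held it. Its call was lost with 200 bp around peak midpoints, with merging across 500 bp and in 1-kb bins, where the difference was -20 points in each (Fisher's exact test, adjusted p = 0.448 to 0.481), so late lists then held a peak close by. The region chr7:135605181-135605437 was at early ranks 2316 to 3300 and was present in 1 late list as deposited, at rank 12193.5. Its difference was 0 points in the first 2 of these alternatives and -40 points in 1-kb bins (Fisher's exact test, adjusted p = 0.175). The largest groups of late-lower regions within 1 Mb were 11 of 42 tested between 69139613 and 69735286 on chromosome 11 and 10 of 26 tested between 23524482 and 23831761 on chromosome 13.

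The late-higher regions named here were chosen for their high rank in the lists that held them. Others ranked far lower, such as chr8:24792536-24792826 at a median rank of 7866. In lists of 5000 peaks, 72 of the 158 were still tested. The region chr17:13745012-13745161 ranked 17, 27, 13, 20 and 19 in the lists of clones 16, 18, 20, 21 and 25. No early list held it even as deposited, while all 24 progenitor lists held it, at a median rank of 5799. The region chr6:29698821-29698980 ranked 40.5, 83, 35, 34 and 39 in the late lists and was again in no early list as deposited.

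The region chr10:21862403-21862651 ranked 47, 138.5, 67.5, 61 and 102 in the late lists. All 13 early lists held it as deposited, but at ranks 10189.5 to 22735.5. Cut by the second score, its difference was 61.5 points and did not pass (Fisher's exact test, adjusted p = 0.171). The region chr10:80640813-80640965 ranked 89.5, 749, 58, 89.5 and 392.5 in the late lists, and it was in no early list. Among progenitors it was in the list of clone 11 only, at rank 376. Over the 158 regions, 68 were in no early list as deposited, and 127 were in at least 3 of the 6 shorter late lists, which took no part in the test. For comparison, at least 3 of those 6 lists held 3853 of all 11231 regions tested. They held 1883 of the 2217 regions found in all 13 early and all 5 late lists, so recurrence there was not particular to the late-higher set.

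Among the 10000 highest progenitor peaks, the late-higher regions were held mainly in 1 library, but most progenitor lists held many of them lower down. The progenitor list of clone 11 held 102 of the 158 (64.6%) among its 10000 highest peaks. The other 23 progenitor lists held 6 to 19 each (median 8). Of the 1580 late-lower regions, the cut clone 11 list held 1077 (68.2%) and the other cut progenitor lists 1048 to 1433. A share of this size in clone 11 was thus not particular to the late-higher set, whereas the low counts in the other progenitor lists were. The clone 11 progenitor list is the shortest of the 24, with 11114 peaks, so that the cut to 10000 removed little from it, and its lowest peak kept held 16.0 tags. In the lists as deposited it held 106 of the 158, whereas the progenitor lists of clones 1, 18, 19 and 17 held 125, 120, 116 and 115, and the median late-higher region was in 14 of 24 progenitor lists. The progenitor lists of clones 21 and 25 were as thin at that point, with 18.0 and 12.0 tags, and held 10 and 9 of the 158 when cut and 19 and 20 as deposited. The set was also richer in unplaced sequence: 13 of the 158 (8.23%) lay on it, against 0.303% of all regions tested. Unplaced sequence held 48 to 94 of the peaks of a late list and 16 to 21 of those of an early list. Among the late-higher regions that the cut clone 11 list did not hold, 14 were in at most 2 progenitor lists as deposited. Over all 158, 7 were in at least 12 progenitor lists when cut. These 7 included chr17:13745012-13745161, which the clone 11 list held at rank 39.

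Late-higher regions clustered at a few places. The largest group was 6 of the 12 tested regions of a 1-Mb window, between 57686673 and 57702361 on chromosome 10, all 6 of them in the clone 11 progenitor list. Next were 5 of 18 between 33069650 and 33080801 on chromosome 5, 4 of them in that list, and 5 of 5 between 56200143 and 56208520 on chromosome 8, 2 of them in that list. Of the largest late-lower groups, that list held 6 of the 11 on chromosome 11 and 9 of the 10 on chromosome 13.

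**Figure D3:**
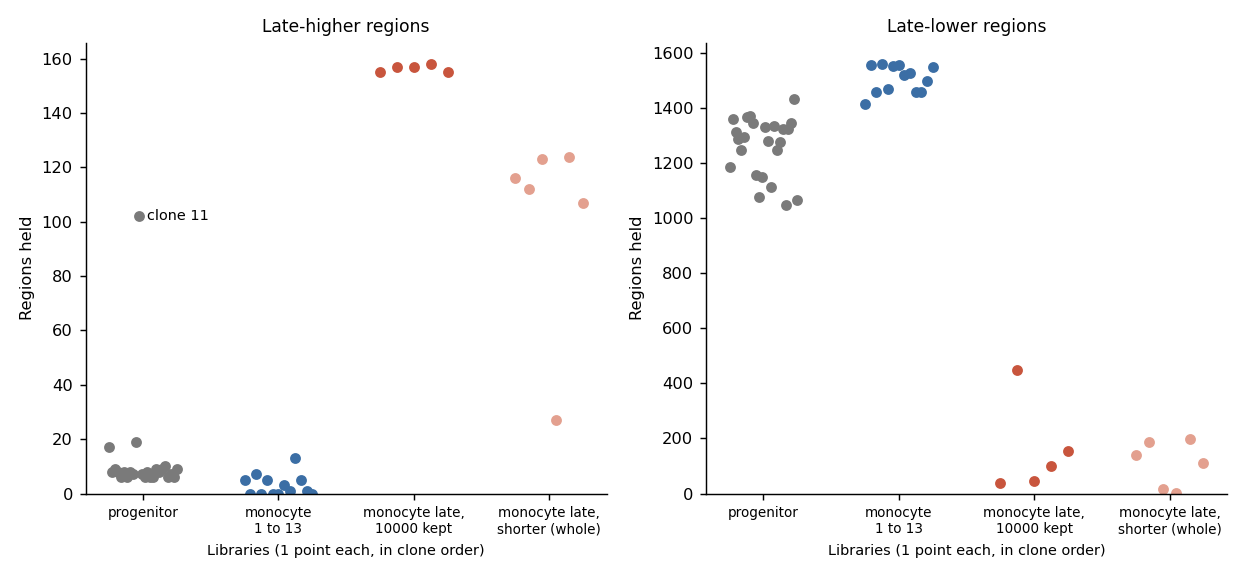
Each point is 1 library, and the vertical axis counts how many of the 158 late-higher regions (left) and 1580 late-lower regions (right) its 10000 highest peaks hold, with whole lists used for the 6 shorter late lists. The clone 11 progenitor list reaches 102 late-higher regions and the other progenitor lists 6 to 19, while the late monocyte lists hold 155 to 158 as the test required.

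Peak width was a property of the library and did not differ between the groups beyond the spread. In each library 99.9869% to 100% of peaks had 1 width. That width was 144.8 ± 4.60 bp (SD, n = 5) in late and 144.3 ± 18.0 bp (SD, n = 13) in early libraries, and the difference of 0.492 bp did not exceed the spread (exact permutation test, p = 0.979). The DNA covered by 10000 peaks was 1.38 to 1.50 Mb in late and 1.20 to 1.82 Mb in early lists (p = 0.979 by the same exact test). Merged regions were narrower among the late-lower (median 235 bp) and late-higher (189.5 bp) than among uncalled regions (261 bp). Merged width grows with the number of lists that hold a region, and uncalled regions held by exactly 5 lists had a median of 217 bp.

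Ranks were compared separately over the 3110 regions that were peaks in all 18 lists as deposited, so that each list ranks the same regions. List length still enters through the choice of regions. A region had to be a peak in every late list, also in the shortest list, that of clone 18 with 10966 peaks. The late lists ranked 607 of them higher (19.5%) and 663 lower (21.3%; limma on normal scores of the rank, adjusted p under 0.05). Ranked by the second score, the counts were 105 and 114. The 607 stood at a median rank of 2445 of 3110 in early lists, and the 663 at 865.5. Both sets were called on the late minus early rank and then described by the same early ranks. A region low in the early order has more room to rise, and a region high in it more room to fall. These medians therefore describe the sets and cannot decide whether position in the early order played a part. Differences above 3 normal-score units were found at 15 regions, all higher in late lists, and their ranks in the 5 late lists did not go beyond 1057.5.

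The largest was chr5:137632905-137633208, at ranks 24, 56.5, 32, 14 and 18 in the lists of clones 16, 18, 20, 21 and 25 and 3091 to 3110 in early lists (difference 5.60, SE 0.177, limma adjusted p = 2.34e-18). In progenitors its median rank was 3103, and the clone 11 progenitor list had it at 765. For chrX:109484426-109484760 the late ranks were 29, 215, 23, 69.5 and 143.5 and the early ranks 3000 to 3108.5. Its rank in the clone 11 progenitor list was 29, against a best of 1214.5 in the other 23 progenitor lists. Of the 10 regions with the largest rise, 9 were within the first 100 ranks of the clone 11 progenitor list.

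Among the regions ranked lower in late lists, chr16:96366795-96367115 stood at 9 to 220 (median 21.5) in early lists and at 1640, 1972, 780.5, 901.5 and 1470.5 in late ones (difference -2.11, SE 0.214, limma adjusted p = 9.77e-08). Progenitor lists had it at a median rank of 86. The region chr5:36924502-36924774 was at early ranks 210.5 to 750.5 and late ranks 2602, 1502.5, 1524.5, 3020.5 and 2481, with a progenitor median of 28. The groups did not overlap at either region. Both changed sign when ranked by the second score, with differences of 0.759 and 0.443 and limma adjusted p = 0.365 and 0.487. The meaning of that score is not given in the sources used here. It is itself higher in late lists, with medians of 0.97 to 1.14 against 0.30 to 0.89.

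The share of peaks per chromosome differed at 14 of 20 chromosomes (70.0%), higher in late lists at 4 and lower at 10 (exact permutation tests, adjusted over 20). On chromosome 19 the share was 3.01%, 3.35%, 2.69%, 3.06% and 3.10% in the late lists and 3.43% to 3.69% in early lists (adjusted p = 0.000778). On chromosome 5 it was 8.16%, 6.74%, 8.32%, 8.28% and 8.20% in the late lists and 6.34% to 6.99% in early lists (adjusted p = 0.00156). On chromosome X it was 1.89%, 1.91%, 1.57%, 1.51% and 1.70% against 2.08% to 2.41%. Lists are stored by chromosome and ties were broken in that order, so shares are also given with tied peaks left out: 12 chromosomes then differed, 3 higher and 9 lower. In lists of 2500 peaks the chromosome X difference changed sign to 0.393 percentage points higher in late lists (exact permutation test, adjusted p = 0.00408).

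The late lists were then placed between progenitor and monocyte, with regions defined in early clones. A late list that agrees less with early lists tends to score lower on any regions defined in this way. These scores therefore cannot decide whether the late lists were more mature. The 7 odd early clones gave 413 monocyte-axis regions, held by at least 80% of their monocyte lists and at most 20% of their progenitor lists. They also gave 247 progenitor-axis regions by the reverse rule and 6662 regions of both stages. The 6 even early clones and the late clones were then scored. Late lists held 24.7% of the monocyte-axis regions in clone 16, 78.0% in clone 18, 8.47% in clone 20, 27.8% in clone 21 and 70.2% in clone 25. Even early lists held 38.3% to 95.9% (median 88.6%), the lowest being thin clone 10. No late list exceeded that median. The difference in means of -40.2 percentage points did not pass adjustment (exact permutation test over 462 splits, p = 0.0411, adjusted p = 0.0548). It did pass with lists of 5000, from which the axis regions were chosen anew (-45.4 points, exact permutation test, adjusted p = 0.00325). It also passed in 8 of the 18 comparisons that left out 1 library (exact permutation tests, adjusted p = 0.0159 to 0.0491).

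The progenitor-axis regions did not show a difference that exceeded the spread, with 9.72% to 11.3% in late lists and 3.24% to 29.1% in even early lists (exact permutation test, p = 0.55). In lists of 2500 peaks the late lists held 13.6 points more of them (exact permutation test, adjusted p = 0.00433). The regions of both stages did. Late lists held 58.5%, 86.0%, 49.5%, 66.0% and 77.2% of them and even early lists 97.6% to 99.7% (difference -31.6 percentage points, exact permutation p = 0.00216, the smallest that 462 splits can give, adjusted p = 0.00866). In the monocyte-axis regions the difference in means was larger, at -40.2 percentage points, but did not pass adjustment. The spread there was wider, with an SD of 30.5 in late and 21.9 in even early lists. In the regions of both stages it was 14.5 and 0.797. Whether the drop differed between these sets of regions was not tested.

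A score based on ranks placed the late lists lower as well. Over the 3084 regions in all 36 lists of the 18 clones, the position was the mean normal score of 88 regions ranked higher in odd monocyte lists minus that of 110 ranked higher in odd progenitor lists. Even progenitors stood at -1.47 to -0.054 and even early monocytes at 1.21 to 1.68. The late monocytes stood at 0.392, 1.23, 0.128, 0.876 and 0.949, below or at the lower end of the early monocytes and above the progenitors. The difference in means was -0.763 (exact permutation test, p = 0.00433, adjusted p = 0.00866). By this measure no late list lay beyond the early monocytes, but the axis again came from early clones, so this does not decide maturity. The call was lost without the early library of clone 3, where the difference was -0.475 (exact permutation test, adjusted p = 0.0952).

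**Figure D4:**
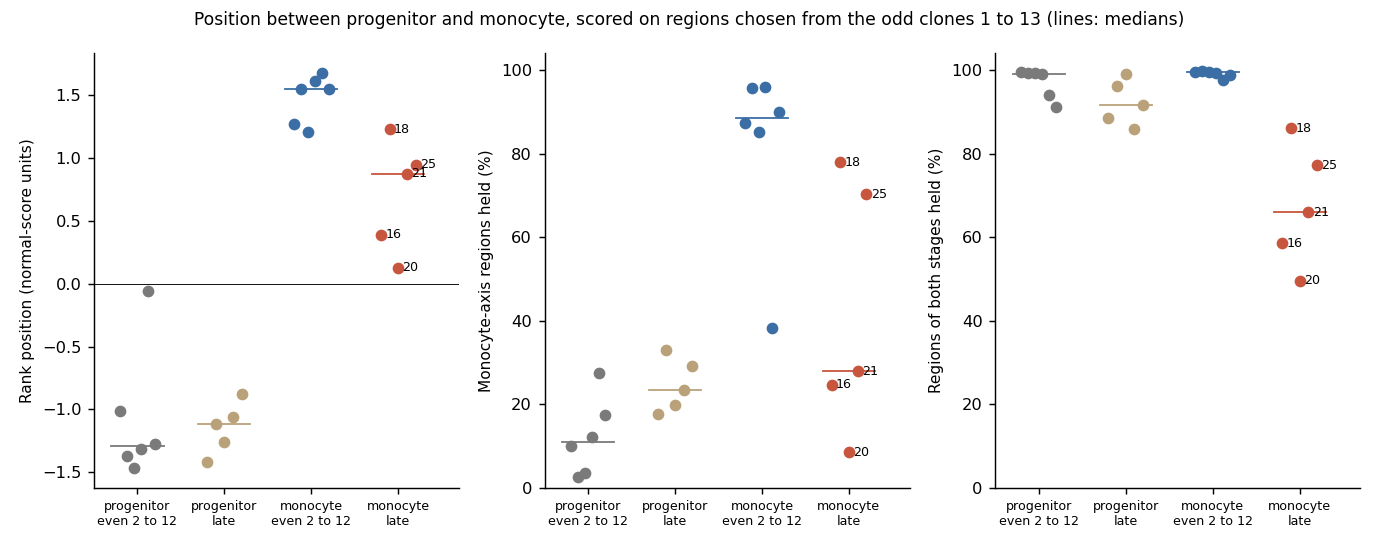
Each point is 1 library of the even early clones or of the late clones, and lines mark medians; the vertical axes show the rank position in normal-score units, the percentage of the 413 monocyte-axis regions held and the percentage of the 6662 regions of both stages held. The late monocyte libraries, numbered by clone, lie above the progenitors and, apart from clone 18 at 1.23, below the early monocytes in rank position, and below the early monocytes in the right panel.

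The 5 late lists were not uniform. The lists of clones 18 and 25 had a Jaccard index of 0.541 with each other, whereas the other 9 pairs of late lists had values of 0.239 to 0.338. The rank correlation over the 3110 shared regions was 0.806 for clones 18 and 25 and 0.465 to 0.615 for the other pairs. These 2 lists were singled out after their values were seen.

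To separate rank from stage, regions of the odd monocyte lists that were rare in progenitors (at most 20% of odd progenitor lists) were compared with regions common in progenitors. They were matched by band of rank, not by single rank. Bands with fewer than 20 rare regions were left out. Ranks 4001 to 6000, 6001 to 8000 and 8001 to 10000 remained, with 62, 206 and 131 rare regions. In even early lists the rare regions were held 50.4 percentage points less often to 0.247 points more often than the common ones. In the late lists the difference was 0.762 points in clone 16, 20.9 in clone 18, -13.5 in clone 20, -0.998 in clone 21 and 26.0 in clone 25. Clone 18 held 77.2% of the rare and 56.3% of the common regions, and clone 25 held 69.2% and 43.1%. Early clone 10, whose lowest kept peak held 13.0 tags, held 39.1% and 89.5%. The groups overlapped, and the difference in means of 19.5 points did not exceed the spread (exact permutation test, p = 0.119). This comparison was added after the data were seen. The values of single clones are descriptions, and no test compares clones 18 and 25 with the others.

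**Figure D5:**
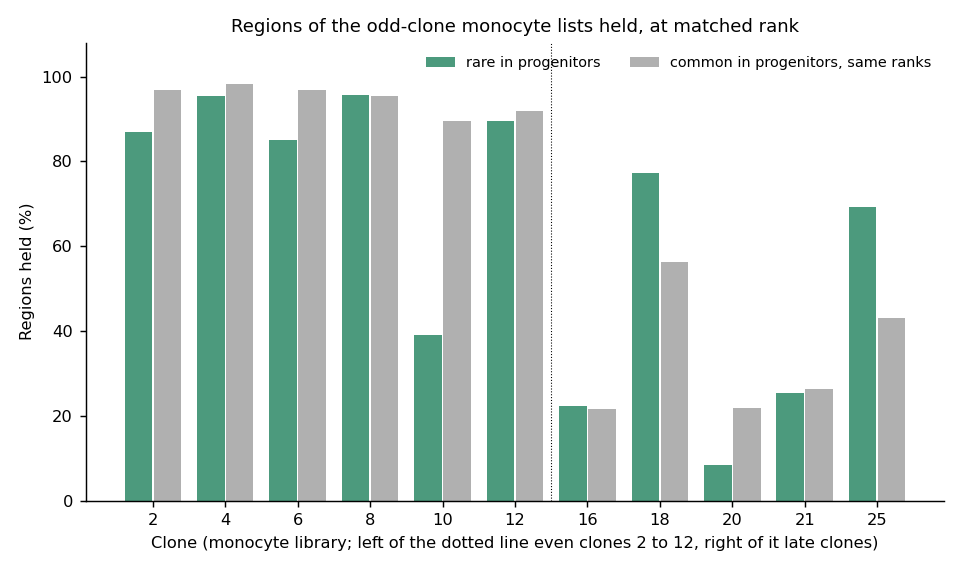
Bars, starting at 0, give the percentage of regions of the odd-clone monocyte lists that each even early or late monocyte list held. Even early lists are left of the dotted line and late lists right of it. Green bars are for regions rare in progenitors, and grey bars for regions common in progenitors in the same bands of rank (4001 to 10000). Green exceeds grey by 20.9 points in clone 18 and 26.0 points in clone 25, and falls 50.4 points short of it in clone 10.

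In the progenitor lists of the same clones no single region passed the test of presence. Over 11609 regions, none differed between the progenitors of clones 16, 18, 20, 21 and 25 and those of clones 1 to 13 (Fisher's exact test, 0% called), and 819 had an unadjusted p under 0.05. Late progenitor lists held 24.6% ± 6.34 (SD, n = 5) of the monocyte-axis regions against 12.2% ± 9.24 (SD, n = 6) in even early progenitor lists, and 70.0% ± 12.4 (SD, n = 5) against 86.7% ± 8.85 (SD, n = 6) of the progenitor-axis regions. Neither difference passed adjustment (exact permutation tests, both p = 0.0346, both adjusted p = 0.0693). By rank, limma called 387 of 8354 regions higher (4.63%) and 332 lower (3.97%), and 39 to 684 higher with 1 late clone left out. Without the thin progenitor libraries of clones 21 and 25 these counts were 3 (0.0328%) and 11 (0.12%) of 9141 regions. The stages were then compared over the 3084 regions in all 36 lists of the 18 clones. There the monocytes gave 605 higher (19.6%) and 640 lower (20.8%) and the progenitors 67 (2.17%) and 69 (2.24%; limma). Within clones, the monocyte rank minus the progenitor rank was higher in late clones at 405 regions (13.1%) and lower at 427 (13.8%), in a limma test of that difference.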

How the data were processed

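ATAC-seq peak lists of 48 libraries were used as the authors deposited them, in mm9 coordinates. BWA and mm9 are named in the submitters' processing notes. Caller, read filtering and transposase shift were not given in the sources used here. Every deposited list holds a first signal value per peak (column 4), which rose in even steps, and a second score (column 5) of unknown meaning. For 90.8% to 100% of peaks below 40 steps, the signal lay within 0.1 step of a whole number of steps. One step was read as 1 tag, which gives relative depth only if all lists were scaled to 1 total. Total depth is unknown.

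Each list was cut to its 10000 peaks of highest signal, ties in file order. Peaks overlapping by 1 bp or more were merged, and regions in at least 5 of 18 lists were compared by Fisher's exact test, with p adjusted by Benjamini and Hochberg's method at 0.05. Ranks within lists were converted to normal scores and tested with limma 3.58.1 in R 4.3.3. Library measures were compared by two-sided exact permutation tests (Python 3.11.15, scipy 1.17.1). The text names regions taken from the 10 largest differences per direction. In the test of presence, 134 late-higher and 368 late-lower regions tied at the largest difference. Ties went to the smaller median rank in the lists that held the region, so the high ranks of the named regions follow from this choice. Both tests were tested on simulated data. The libraries and regions compared were chosen with earlier results of these data known. Clone numbers pair the stages because both libraries come from 1 clone. The alternatives tried were other list lengths, the second score, other merging, other treatment of ties, each library left out, other axis bounds, and a replicate block by clone.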

Additional observations from a re-analysis of the deposited data

Results flagged for a closer look

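In 51 sets of 4 to 6 libraries, 1 library stood farther from its group than the range of the others allows in 9 cases. In independent sets of normally distributed values, chance gives about 1 such case in 20 sets. The sets here share libraries and regions, so the 9 cases cannot be set against that rate. The deposited late list of clone 20 held 38786 peaks, far more than the other late lists (10966 to 17591). The late list of clone 25 had 8.42% of its peaks on chromosome 1 and 8.21% on chromosome 17, above the other 4 late lists on both. The late list of clone 18 had 6.74% on chromosome 5, below the other late lists, and 5.39% on chromosome 9, above them. The late list of clone 21 held 9.72% of the progenitor-axis regions, where the other late lists held 10.9% to 11.3%. Among the even early clones, the monocyte list of clone 10 held 38.3% of the monocyte-axis regions, its difference between rare and common regions was -50.4 points, and its progenitor library stood at -0.054 on the rank axis. None of these was tested further.

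The change in rank from progenitor to monocyte differed between late and early clones, as tested on the difference itself, with 405 regions higher and 427 lower in late clones of 3084. Over the same regions the monocytes alone gave 605 and 640 and the progenitors alone 67 and 69.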

How the results depend on the processing

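The count of late-higher regions (158) became 84 with lists of 5000, 68 with lists of 2500, 75 when cut by the second score, 701 and 286 when regions of at least 3 or 1 libraries were tested, and 384 with 10 late lists of 2500. The count of late-lower regions (1580) became 577, 277 and 616 in the first 3 of these, 2550 for at least 3 libraries and 810 with 10 late lists, 1010 when merging across 500 bp, 2675 with tied peaks left out and 9561 in the lists as deposited. With lists of 5000, 72 of the 158 and 422 of the 1580 were tested again, and 70 and 127 were called. Leaving out 1 library gave 12 to 150 late-higher and 1302 to 2262 late-lower regions. The low end, 12 to 17, came from leaving out any late library, after which a region held by late lists alone no longer reaches 5 lists. Without clones 18 and 25 there were 0, for the same reason; this and the further settings marked as added were chosen after seeing the data.

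By rank, the counts (607 higher, 663 lower) became 105 and 114 with the second score and 1632 and 1669 over regions of at least 15 lists, and 571 to 704 and 605 to 766 with 1 library left out. In the replicate block by clone they were 405 and 427. The blocked comparison pairs monocyte and progenitor libraries of 1 clone; no paired analysis was possible between early and late monocytes because they share no clone.

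The monocyte-axis difference passed the threshold with lists of 5000 (-45.4 points), with lists of 2500 (-39.9), with the axis from the even clones (-46.3), with bounds of 90% and 10% (-55.5) and, added, without clones 18 and 25 (-61.7); with 1 library left out it was -49.2 to -31.9, and it passed in 8 of 18 such fits (without clones 1, 5, 7, 9, 10, 11, 18 or 25). Clones 18 and 25 have the highest late values, so leaving both out fixes a larger difference. With other list lengths, other bounds or other axis clones, the regions of both axes were chosen anew, so these settings score other regions. The progenitor-axis difference changed sign to 1.49 with lists of 5000, 13.6 with lists of 2500 (adjusted p = 0.00433, exact permutation test) and 1.30 with the wider bounds, and was -7.73 to 0.081 with 1 library left out. The rank-axis difference was -1.05 to -0.475. The width difference was -1.53 to 3.63 bp and the covered DNA difference -0.0154 to 0.0363 Mb with 1 library left out. Ties at the lowest peak changed sign by the second score (-371 peaks), as did the rank differences of chr16:96366795-96367115 (0.759), chr5:36924502-36924774 (0.443) and chr9:106379344-106379570 (0.601). With lists of 2500 the shares of chromosomes 4 (-0.0806), 10 (0.0991), 13 (0.31), 18 (0.281) and X (0.393) changed sign, in percentage points. Cut by the second score, 7 chromosomes differed instead of 14. In progenitors the rank counts (387 and 332) were 39 to 684 and 38 to 632 with 1 library left out and 3 and 11, added, without clones 21 and 25. Causes of these changes were not tested where no reason is given. The lowest peak kept held at most 19.0 tags in the late lists and in early clones 3 and 10.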
